A study of Homo sapiens with 18 samples.

Results

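The core spliceosome genes followed here are 47 of the 58051 gene identifiers in the deposited count tables, taken by symbol in GENCODE release 29: the proteins of the U1, U2 and U4/U6.U5 small nuclear ribonucleoproteins (snRNPs), U2AF, the Prp19-associated proteins and the DEAH-box helicases. Expression was measured in KBM7, an established human cell line from chronic myelogenous leukaemia, after 5 h in 6 groups of 3 libraries: the solvent DMSO, 4 compounds given at 10 times EC50 (dCeMM-1 to dCeMM-4), and THZ531 at 600 nM. As background, dCeMM-1 makes cells degrade RBM39, itself a splicing factor, whereas dCeMM-2 to dCeMM-4 deplete cyclin K, the partner of the transcription kinases CDK12 and CDK13, and THZ531 blocks those kinases by a covalent bond. The labels used here name no genetic change, all cells were of 1 line, and separate cultures are not stated for the libraries within a group, so a p-value measures the spread between these libraries, which may be technical.

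Spliceosomes are built anew on each intron. The U1 snRNP binds the start of the intron and U2AF and the U2 snRNP its end and branch point, after which the U4/U6.U5 tri-snRNP joins. Helicases then release U1 and U4, the Prp19-associated proteins hold the active site, and the DEAH-box helicases drive the catalytic steps and take the machine apart. Every snRNP but U6 carries a ring of Sm proteins.

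Gene counts per library ran from 4598576, in DMSO replicate 3, to 17943571, and 46 of the 47 genes passed the filter on low counts; their counts ran from 12 to 11655 per library. The share of gene counts that fell on the 47 genes was 0.729% ± 0.0156 (SD, n = 3) in DMSO and 0.729% ± 0.00389 under dCeMM-1. It was 0.519% ± 0.00990 under dCeMM-2, 0.429% ± 0.00942 under dCeMM-3, 0.707% ± 0.0246 under dCeMM-4 and 0.492% ± 0.0115 under THZ531. With dCeMM-2, dCeMM-3 and THZ531 all 3 libraries lay below all DMSO libraries (exact two-sided permutation test, p = 0.1, the smallest that 3 against 3 can give). THZ531 replicate 1 stood apart from the other THZ531 libraries, with 12.9% of its gene counts mitochondrial against 8.21% and 8.17%. Its counts differed from those of THZ531 replicates 2 and 3 by a chi-square per degree of freedom of 18.6 and 20.7. Replicates 2 and 3 differed from each other by 1.46, less than any pair within another group (lowest 2.61, DMSO replicates 2 and 3). Leaving replicate 1 out changed no call of a core spliceosome gene with THZ531. Replicates 2 and 3 alone hold little spread, however, so this is a weak check of those calls. Blood-cell markers were present in DMSO, among them PTPRC at 442 ± 21.6 and MYB at 804 ± 55.9 CPM (counts scaled to a common library size), while the progenitor marker CD34 was at 2.28 ± 0.192 CPM. The T-cell gene CD3D was also present, at 65.1 ± 3.46 CPM. Of the epithelial and stromal genes examined, KRT5 and DCN were at 0 in every library. COL1A1 was at 0.907 ± 0.295, COL1A2 at 0.686 ± 0.237 and EPCAM at 0.442 ± 0.118 CPM in DMSO, and CDH1, KRT19 and ALB were lower there. COL1A1 had a mean of 1.07 CPM under dCeMM-1, 2.88 under dCeMM-2, 2.27 under dCeMM-3, 1.85 under dCeMM-4 and 3.13 under THZ531.

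Fold changes are given on 2 scales. TMM scaling sets each gene against the bulk of the other genes in the same library. Spike-in scaling sets it against synthetic ERCC and SIRV RNAs added to each sample; the labels do not give the amount per cell or per amount of RNA, so fewer cells, less RNA per cell and less recovery cannot be told apart in it. A gene was called higher or lower at an edgeR quasi-likelihood p adjusted over all 15055 genes tested (Benjamini-Hochberg) below 0.05. Levels are TMM-scaled CPM for replicates 1, 2 and 3 unless a sentence says otherwise.

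The genes differed widely in level before any compound. Per kilobase of exonic length in DMSO, SNRPB, a protein of the Sm ring, was highest at 132 ± 11.0 CPM (SD, n = 3), followed by the U2 proteins SF3B6 at 117 ± 2.87 and SF3B5 at 98.2 ± 4.08. SF3B5 and SNRPD2, the latter at 92.7 ± 5.76, lay within their spread of each other. The lowest of the 46 were DHX16 at 2.88 ± 0.267, SNRPA1 at 4.74 ± 0.474 and PRPF31 at 6.81 ± 0.314. The exonic length here joins the exons of all annotated transcripts of a gene and can exceed the length of its mRNA, so the order depends on the annotation. SNRPD1, at 142 CPM over 4909 bases, came to 28.9 per kilobase, while SNRPD2 had 149 CPM over 1608 bases.

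U2AF1, the small U2AF subunit that reads the AG at the end of the intron, could not be followed. It had 0 to 6 counts per library and 47 in all 18, while its annotated near-copy U2AF1L5 had 6 to 45 and 336 in all. Of the 11626 distinct stretches of 75 bases in GENCODE 29 transcripts of U2AF1, 91.8% also occur in transcripts of U2AF1L5, and reads placed at more than 1 position were left out of the gene counts. The count of U2AF1 is therefore no measure of its expression. GENCODE also names pseudogenes after 10 of the 47 genes, with 20 for SNRPG, 18 for SNRPC and 9 for SNRPE, so counts of these Sm and U1 genes may lack reads shared with copies. Further, 23 of the 47 overlap a gene on the opposite strand, and the strand setting of the counting is not given in the sources used here.

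Windows before a RefSeq start are shown for 2 genes that rose and 2 that fell with dCeMM-2, dCeMM-3 and THZ531, since members that moved together could share letters upstream. Each run is the 150 bases before a RefSeq start (table build GRCh38.p14), 5′ to 3′ on the strand of the gene: SNRPA at chr19:40751053-40751202 on the plus strand, SNRPD2 at chr19:45692317-45692466 on the minus strand, PRPF4 at chr9:113275508-113275657 on the plus strand and SNRNP40 at chr1:31296789-31296938 on the minus strand. Capitals mark matches, on either strand, to CCGGAAG, the core of an ETS motif, to the GC box GGGCGG, or to the CCAAT box, named for its letters. Searched with them were the TATA box as TATAAA, the E-box as CACGTG and the YY1 motif as AAGATGG. No match overlaps another in these windows.
SNRPA: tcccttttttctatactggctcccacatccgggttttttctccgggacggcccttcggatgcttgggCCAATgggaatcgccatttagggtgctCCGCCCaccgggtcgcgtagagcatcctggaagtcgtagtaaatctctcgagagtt
SNRPD2: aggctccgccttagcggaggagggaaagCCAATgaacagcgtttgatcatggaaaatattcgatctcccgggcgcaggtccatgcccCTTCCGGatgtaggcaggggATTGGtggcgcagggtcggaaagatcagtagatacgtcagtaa
PRPF4: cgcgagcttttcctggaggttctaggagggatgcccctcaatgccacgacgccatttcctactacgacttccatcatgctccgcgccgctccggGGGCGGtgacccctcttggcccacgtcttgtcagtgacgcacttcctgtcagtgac
SNRNP40: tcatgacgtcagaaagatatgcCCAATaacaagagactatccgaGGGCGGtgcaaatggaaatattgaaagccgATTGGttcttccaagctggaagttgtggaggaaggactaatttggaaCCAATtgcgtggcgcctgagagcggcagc

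SNRPA holds a CCAAT box and a GC box, SNRPD2 has 2 CCAAT boxes around an ETS motif, PRPF4 has a GC box and SNRNP40 has CCAAT boxes and a GC box, so the pairs that rose and fell share these letters in part. In GENCODE 29 the window of SNRPA also overlaps C19orf54 and that of PRPF4 overlaps CDC26, both on the opposite strand. The windows of SNRPA, SNRPD2 and PRPF4 also lie within the GENCODE 29 bounds of those genes themselves, whose annotated starts include one farther upstream, while that of SNRNP40 lies outside its gene. RefSeq promoters of 300 bases, 250 before and 50 after the start, were matched by symbol for 43 of the 47 genes, and a gene was counted where any of its starts held the motif on either strand. The ETS motif occurred in 24 of 43 (55.8%), against 12.2% of 27305 genes in the same table, and the GC box in 28 of 43 (65.1%) against 48.3%. The TATA box occurred in 2 of 43 (4.65%) against 14.0%, the CCAAT box in 17 of 43 (39.5%) against 39.7%, the YY1 motif in 7 of 43 (16.3%) against 7.11% and the E-box in 2 of 43 (4.65%) against 8.77%. Among snRNP protein genes 7 of 11 had the ETS motif, and among PRPF and DHX genes 4 of 10. These are matches of letters and were not tested; the comparison table also holds genes that KBM7 does not express.

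The first question was what each compound did to the 46 genes relative to the other genes. With dCeMM-2, 12 of 46 rose and 26 fell on the TMM scale; of all 15055 genes, 37.1% rose and 41.2% fell. With dCeMM-3, 11 rose and 34 fell, against 35.9% and 45.1% of all genes. With THZ531, 12 rose and 27 fell, against 35.8% and 43.7%. In this fit, falls were thus more frequent and rises less frequent among the core spliceosome genes than among all genes for these compounds. No test was made of that difference. The median log2 fold change of the 46 genes was -0.39 under dCeMM-2, -0.76 under dCeMM-3 and -0.48 under THZ531, beside -0.023, -0.15 and -0.10 over all genes. With DESeq2 size factors the rises and falls were 15 and 26 (dCeMM-2), 11 and 30 (dCeMM-3) and 15 and 24 (THZ531). The shares of all genes on that scaling were 39.7% and 39.1%, 40.5% and 41.3%, and 40.7% and 39.6%, in that order. With only the 2 groups fitted, the rises and falls were 15 and 26, 11 and 30, and 17 and 24. The shares of all genes in that fit are not given here.

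With dCeMM-4 the order was the other way round: 23 of 46 rose and 12 fell, against 32.9% and 35.3% of all genes, and the median was 0.19 beside 0.0054 over all genes. Leaving out single libraries gave 10 to 11 falls. Scaling by DESeq2 size factors gave 30 rises and 9 falls there, against 38.5% and 31.0% of all genes on that scaling. With dCeMM-1, 3 rose and 8 fell, against 16.5% and 14.8% of all genes, and the split was 2 and 12 with DESeq2 size factors, against 14.3% and 16.8%. Relative to TMM, those size factors move the median of all genes by 0.16 under dCeMM-3, 0.16 under THZ531 and 0.12 under dCeMM-4, and by 0.079 under dCeMM-2.

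**Figure D1:**
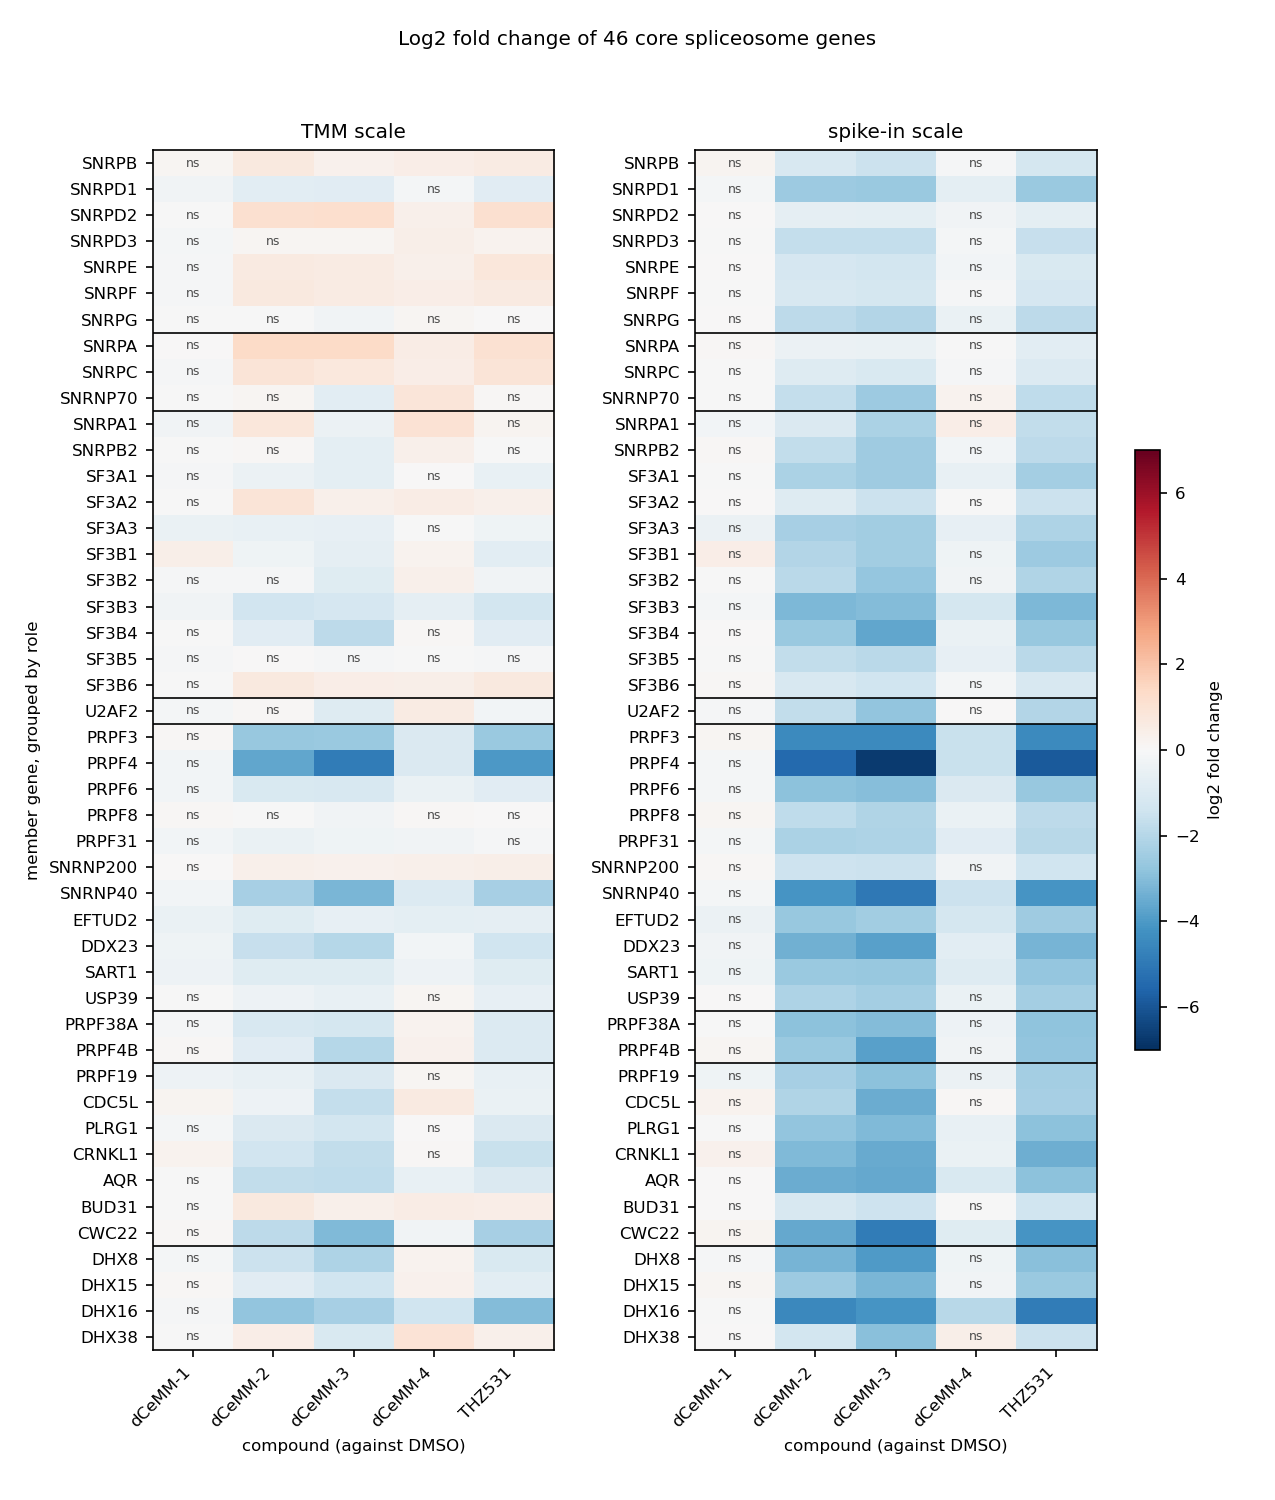
Log2 fold change against DMSO of the 46 tested genes (rows, grouped by role, with lines between roles) for 5 compounds (columns) on the TMM scale (left) and the spike-in scale (right); ns marks genes that were not called. On the left, PRPF4, PRPF3, SNRNP40, DHX16 and CWC22 are darkest, and SNRPA and SNRPD2 are the strongest rises; on the right, all 46 are lower with dCeMM-2, dCeMM-3 and THZ531.

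On the spike-in scale all 46 genes fell with dCeMM-2, dCeMM-3 and THZ531. So did 83.0%, 83.7% and 84.7% of all genes, while 1.48%, 1.12% and 1.32% rose. None of the 46 rose by edgeR, and none had a positive change at an unadjusted p below 0.05 (0 genes with each compound). Log2 fold changes ran from -5.43 to -0.43 under dCeMM-2, from -6.71 to -0.47 under dCeMM-3 and from -5.87 to -0.69 under THZ531. Their medians were -2.18, -2.59 and -2.33, beside -1.80, -1.96 and -1.94 over all genes. Every gene that rose on the TMM scale with these 3 compounds (12 under dCeMM-2, 11 under dCeMM-3 and 12 under THZ531) was therefore lower on the spike-in scale. The error of a library's spike-in total is common to all its genes, so the calls on this scale are not independent of each other. The spike-in share of counts, which sets this scale, was 0.179% ± 0.0200 in DMSO and 0.512% ± 0.0784, 0.542% ± 0.0699 and 0.531% ± 0.0992 with the 3 compounds.

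With dCeMM-4 the spike-in scale gave 0 rises and 20 falls by edgeR, against 6.30% and 48.0% of all genes; 1 gene was higher at an unadjusted p below 0.05. Without dCeMM-4 replicate 1 there were 2 rises, SNRPA1 and DHX38, and 13 falls, and without DMSO replicate 2 there were 13 falls. With dCeMM-1 there were 0 rises and 0 falls by edgeR, against 2.83% and 1.34% of all genes, and 1 gene each way at an unadjusted p below 0.05. No other tool was run on this scale. The error was wider on this scale: SF3B1 under dCeMM-1 was at 0.49 (SE 0.20, adjusted p = 0.144), against an SE of 0.07 on the TMM scale.

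The second question was how the 12 snRNP proteins (the 7 Sm proteins, the U1 proteins SNRPA, SNRPC and SNRNP70 and the U2 proteins SNRPA1 and SNRPB2) compared with the 12 PRPF and DHX factors. The name snRNP proteins stands for this set only. PRPF3, PRPF4, PRPF6, PRPF8 and PRPF31 of the other set are proteins of the tri-snRNP, so the sets do not divide snRNP from other proteins. With dCeMM-2, 7 of 12 snRNP genes rose and 1 fell, while 1 of 12 PRPF and DHX genes rose and 10 fell. With dCeMM-3 it was 7 and 5 against 0 and 12, and with THZ531 7 and 1 against 1 and 9. The rises with dCeMM-3 include SNRPD3, whose call was lost when some single libraries were left out, as given below for the Sm proteins. The falls with dCeMM-3 include PRPF31, whose call was lost without dCeMM-3 replicate 3, as given below for the tri-snRNP. With dCeMM-4, 10 snRNP genes rose and 0 fell by edgeR (also 0 falls at an unadjusted p below 0.05 and 0 with DESeq2), while 5 PRPF and DHX genes rose and 5 fell. Those falls include PRPF31, whose call was lost when some single libraries were left out, as given below for the tri-snRNP. Over all genes the rises and falls were 37.1% and 41.2% under dCeMM-2, 35.9% and 45.1% under dCeMM-3, 35.8% and 43.7% under THZ531 and 32.9% and 35.3% under dCeMM-4, and the PRPF and DHX counts with dCeMM-4 lie near the latter. With dCeMM-1, 1 gene fell in each set, against 14.8% of all genes. The snRNP gene was SNRPD1, whose call was lost when some single libraries were left out, as given below for dCeMM-1.

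Per library, the median log2 change of the snRNP genes minus that of the PRPF and DHX genes, each gene taken from its DMSO mean, was -0.0013 ± 0.062 (SD, n = 3) in DMSO and -0.00067 ± 0.059 under dCeMM-1, and these libraries overlapped. It was 1.54 ± 0.10 under dCeMM-2, 1.56 ± 0.15 under dCeMM-3 and 1.28 ± 0.053 under THZ531; the lowest of these 9 libraries was at 1.24 and the highest DMSO library at 0.066. With dCeMM-4 it was 0.34 ± 0.15, from 0.19 to 0.49, above DMSO and below the other 3 compounds without overlap. The difference does not depend on the scale of a library, since both sets are scaled together. It is a description of sets named with results of these data known, and no test was made of it.

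**Figure D2:**
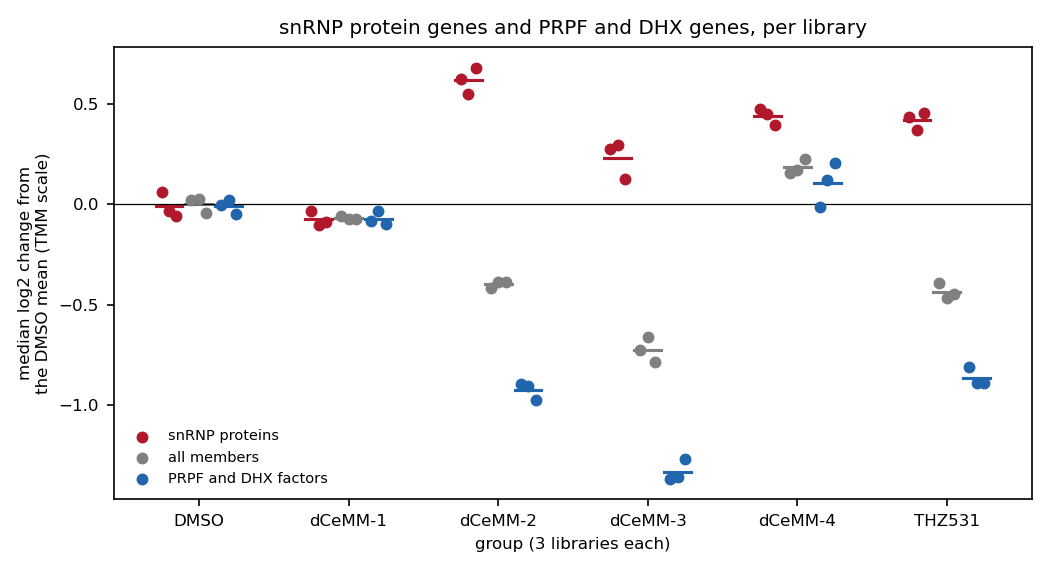
Median log2 change from the DMSO mean (TMM scale) of the snRNP protein genes (red), all 46 genes (grey) and the PRPF and DHX genes (blue), with 1 point per library and a bar at the group mean. The red and blue points lie 1.54, 1.56 and 1.28 apart with dCeMM-2, dCeMM-3 and THZ531, 0.34 under dCeMM-4, and overlap in DMSO and with dCeMM-1.

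The sets differ in gene structure as well. The snRNP genes span a median of 14263 bases with a median of 6 exons in the transcript with most exons, and the PRPF and DHX genes 25819.5 bases with 17.5 exons. Across the 46 genes, Spearman's rho between the TMM log2 fold change and the span was -0.49 under dCeMM-2, -0.44 under dCeMM-3, -0.46 under THZ531, -0.28 under dCeMM-4 and -0.016 under dCeMM-1. Over 12332 protein-coding genes the same rho was -0.07, -0.028, 0.0023, -0.064 and 0.071. The genes share libraries and are no independent replicates, so these values describe the genes only. The part of gene length in the difference between the sets was not tested.

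Among the Sm proteins, which form the ring on the snRNAs, 4 of 7 rose relative to other genes with dCeMM-2, and 5 of 7 did with each of dCeMM-3, dCeMM-4 and THZ531, against 37.1%, 35.9%, 32.9% and 35.8% of all genes. The rise of SNRPD3 with dCeMM-3 was marginal (0.15, adjusted p = 0.049). It was not called without DMSO replicate 2 or 3, or without dCeMM-3 replicate 1 or 2 (adjusted p from 0.179 to 0.291). SNRPD2 was at 157, 151 and 139 CPM in DMSO, 319, 325 and 344 under dCeMM-2, 319, 389.6 and 289 under dCeMM-3, 194, 196 and 176 under dCeMM-4 and 336, 322 and 335 under THZ531. These 4 groups did not overlap DMSO, while dCeMM-1, at 158, 145 and 136, overlapped DMSO. The log2 fold change of SNRPD2 was 1.14 (SE 0.078, adjusted p = 6.23e-16) under dCeMM-2, 1.15 (SE 0.078, adjusted p = 2.87e-16) under dCeMM-3, 1.15 (SE 0.078, adjusted p = 4.17e-16) under THZ531 and 0.33 (SE 0.078, adjusted p = 0.000244) under dCeMM-4. SNRPB was at 174, 179 and 152 CPM in DMSO and 183, 186 and 187 under dCeMM-1. It was at 276, 249 and 289 under dCeMM-2, 209, 220.2 and 197 under dCeMM-3, 237, 234 and 242 under dCeMM-4 and 255, 253 and 251 under THZ531. All of these lay above DMSO, also the dCeMM-1 libraries, though its change there was not called, at 0.13 (SE 0.065, adjusted p = 0.126). The other calls for SNRPB were 0.68 (SE 0.066, adjusted p = 5.01e-12) under dCeMM-2, 0.30 (SE 0.066, adjusted p = 7.52e-05) under dCeMM-3, 0.49 (SE 0.065, adjusted p = 1.70e-08) under dCeMM-4 and 0.58 (SE 0.065, adjusted p = 2.51e-10) under THZ531.

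SNRPE and SNRPF rose with the same 4 compounds, SNRPE by 0.38 (dCeMM-4) to 0.79 (THZ531) and SNRPF by 0.47 (dCeMM-4) to 0.66 (dCeMM-2) on the log2 scale. SNRPD1 went the other way. Its levels were 155, 135 and 135 CPM in DMSO, 83.5, 81.9 and 90.2 under dCeMM-2, 77.1, 84.2 and 83.9 under dCeMM-3 and 81.6, 83.2 and 84.8 under THZ531, with no overlap, and its log2 fold changes were -0.74, -0.80 and -0.77. Of the 7 Sm genes it was the one that fell with all 3. The Sm genes therefore did not move as 1 block, although their proteins bind as a ring.

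Of the U1 proteins, SNRPA and SNRPC rose with dCeMM-2, dCeMM-3, dCeMM-4 and THZ531, whereas SNRNP70 split the compounds. SNRPA, the U1 stem-loop binding protein, was at 73.6, 73.8 and 66.5 CPM in DMSO and 73.2, 73.1 and 71.5 under dCeMM-1. It was at 187, 172 and 192 under dCeMM-2, 178, 213 and 164 under dCeMM-3, 103, 106 and 102 under dCeMM-4 and 147, 156 and 155 under THZ531. The last 4 groups did not overlap DMSO, and the log2 fold changes were 1.35 (SE 0.076, adjusted p = 7.89e-19), 1.36 (SE 0.076, adjusted p = 3.13e-19), 0.53 (SE 0.076, adjusted p = 7.64e-08) and 1.09 (SE 0.076, adjusted p = 4.22e-16) in that order, which is a 2.55-fold higher share with dCeMM-2. On the spike-in scale the same gene fell with dCeMM-2, at -0.43 (SE 0.21, adjusted p = 0.0484), from 127, 159 and 144 spike-scaled CPM in DMSO to 103, 118 and 97.1. With dCeMM-3 it was -0.47 (SE 0.21, adjusted p = 0.0318). Both spike-in calls were lost without DMSO replicate 2 (-0.35, adjusted p = 0.181 for dCeMM-2 and -0.38, adjusted p = 0.136 for dCeMM-3) and without DMSO replicate 3 (-0.43, adjusted p = 0.09 and -0.47, adjusted p = 0.0648). The call for dCeMM-2 was also lost without its replicate 1 (-0.41, adjusted p = 0.112) or 3 (-0.37, adjusted p = 0.14), and that for dCeMM-3 without its replicate 1 (-0.46, adjusted p = 0.0756) or 2 (-0.45, adjusted p = 0.0615).

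SNRPC rose by 0.89, 0.76, 0.47 and 0.91 on the log2 TMM scale with dCeMM-2, dCeMM-3, dCeMM-4 and THZ531. SNRNP70, the U1 protein that contacts many splicing regulators, was at 105, 113 and 114 CPM in DMSO, 130.0, 115 and 118 under dCeMM-2 and 112, 119 and 124 under THZ531, where neither was called although the dCeMM-2 libraries lay above DMSO (0.13 (SE 0.072, adjusted p = 0.0847) and 0.10 (SE 0.072, adjusted p = 0.194)). It fell with dCeMM-3, to 65.9, 71.0 and 63.9 CPM or -0.73 (SE 0.074, adjusted p = 1.76e-11), and rose with dCeMM-4, to 187, 198 and 204 CPM or 0.83 (SE 0.07, adjusted p = 2.88e-13). With dCeMM-1 it was at 96.9, 114 and 108 CPM and was not called, at -0.053 (SE 0.071, adjusted p = 0.613).

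Of the U2 proteins, 3 of 11 rose and 5 fell with dCeMM-2, near the 37.1% and 41.2% of all genes. With dCeMM-3 it was 2 and 8 (all genes 35.9% and 45.1%), with THZ531 2 and 6 (all genes 35.8% and 43.7%), with dCeMM-4 6 and 1 (all genes 32.9% and 35.3%) and with dCeMM-1 1 and 2 (all genes 16.5% and 14.8%). SF3B1, the subunit that grips the branch-point helix, was at 443, 429.6 and 436 CPM in DMSO and 578, 560.2 and 620.5 under dCeMM-1, a rise of 0.43 (SE 0.07, adjusted p = 1.00e-05) without overlap. It was at 498, 520.3 and 562 under dCeMM-4, also a rise, of 0.27 (SE 0.07, adjusted p = 0.000811). It fell with the other 3: to 372, 370.0 and 323 CPM with dCeMM-2 (-0.30, SE 0.071, adjusted p = 0.000286), 270.4, 276 and 309.7 under dCeMM-3 (-0.61, SE 0.071, adjusted p = 5.25e-10) and 296, 245 and 246 under THZ531 (-0.73, SE 0.071, adjusted p = 6.32e-12). All 5 compounds thus gave a called change of SF3B1, in 2 directions.

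Within the same SF3A and SF3B assemblies, SF3B6, the subunit beside the branch point, rose with the 4 compounds, by 0.41 to 0.70 on the log2 scale, and SF3A2 by 0.36 to 0.89. SF3B3 fell with the same 4, with log2 fold changes of -1.33, -1.20, -0.65 and -1.30 under dCeMM-2, dCeMM-3, dCeMM-4 and THZ531. SF3B4 was at 106, 119 and 116 CPM in DMSO, 66.9, 63.7 and 65.6 under dCeMM-2, 31.8, 31.6 and 32.4 under dCeMM-3 and 63.0, 62.7 and 68.9 under THZ531; its log2 fold changes were -0.80, -1.83 and -0.81. SF3B5, a single-exon gene, was the 1 member not called with any compound on the TMM scale, with log2 fold changes from -0.092 to 0.045. SNRPA1, a U2-specific protein, rose with dCeMM-2 (0.78, SE 0.11, adjusted p = 1.88e-08) and dCeMM-4 (1.04, SE 0.10, adjusted p = 1.12e-11) and fell with dCeMM-3 (-0.38, SE 0.11, adjusted p = 0.00261). Its levels were 16.7, 16.1 and 19.4 CPM in DMSO, 28.7, 27.0 and 32.4 under dCeMM-2, 14.6, 12.4 and 11.8 under dCeMM-3 and 34.3, 34.1 and 36.1 under dCeMM-4. U2AF2, the large U2AF subunit, which binds the polypyrimidine tract, rose with dCeMM-4 (0.59, SE 0.062, adjusted p = 7.27e-11), fell with dCeMM-3 (-0.91, SE 0.064, adjusted p = 3.58e-16) and THZ531 (-0.20, SE 0.062, adjusted p = 0.00451), and was not called with dCeMM-2, at 0.076 (SE 0.062, adjusted p = 0.26).

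In the tri-snRNP, which held the largest fall of the 46 genes with dCeMM-2, dCeMM-3 and THZ531, 9 of 11 genes fell with dCeMM-2, 10 under dCeMM-3, 8 under THZ531 and 8 under dCeMM-4, against 41.2%, 45.1%, 43.7% and 35.3% of all genes. The dCeMM-4 falls of DDX23 (-0.17, adjusted p = 0.0392) and PRPF31 (-0.25, adjusted p = 0.0331) were marginal. DDX23 was not called without any single dCeMM-4 library, nor without DMSO replicate 1 or 2. PRPF31 was not called without DMSO replicate 2 or 3, or without dCeMM-4 replicate 1 or 2. The fall of PRPF31 with dCeMM-3 (-0.30, adjusted p = 0.0114) was not called without dCeMM-3 replicate 3 (-0.21, adjusted p = 0.0913). PRPF4, a U4/U6 protein, was at 110.5, 99.7 and 111 CPM in DMSO and 100.3, 88.4 and 95.2 under dCeMM-1. It was at 9.88, 7.52 and 8.30 under dCeMM-2, 3.55, 4.15 and 3.26 under dCeMM-3, 53.2, 53.9 and 54.3 under dCeMM-4 and 7.80, 5.96 and 5.83 under THZ531. These 4 groups lay below every DMSO library. The log2 fold change was -3.63 (SE 0.10, adjusted p = 1.49e-27) under dCeMM-2, -4.88 (SE 0.12, adjusted p = 1.51e-30) under dCeMM-3, -0.99 (SE 0.08, adjusted p = 9.09e-14) under dCeMM-4 and -4.03 (SE 0.11, adjusted p = 8.67e-29) under THZ531, which is 29.5-fold lower with dCeMM-3. On the spike-in scale PRPF4 went from 191, 215 and 240.4 spike-scaled CPM in DMSO to 2.04, 1.96 and 2.14 under dCeMM-3, a log2 difference of -6.71 with an SE of 0.28. The gene overlaps CDC26 on the opposite strand.

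PRPF3, its partner on U4/U6, was at 77.2, 78.7 and 80.1 CPM in DMSO and fell to 13.4, 12.4 and 11.2 under dCeMM-2, 13.6, 13.5 and 11.7 under dCeMM-3, 35.9, 42.8 and 40.4 under dCeMM-4 and 14.8, 9.12 and 15.1 under THZ531. Its log2 fold changes were -2.65 (SE 0.11, adjusted p = 1.25e-22), -2.60 (SE 0.11, adjusted p = 4.88e-23), -0.98 (SE 0.094, adjusted p = 7.16e-12) and -2.59 (SE 0.11, adjusted p = 1.02e-22). SNRNP40, a U5 protein with WD repeats, was at 77.4, 82.4 and 74.2 CPM in DMSO, 16.5, 15.1 and 14.7 under dCeMM-2, 8.75, 9.02 and 8.34 under dCeMM-3, 39.0, 37.8 and 43.7 under dCeMM-4 and 16.9, 14.3 and 16.0 under THZ531. Its log2 fold changes were -2.34 (SE 0.09, adjusted p = 9.57e-24), -3.17 (SE 0.10, adjusted p = 1.94e-27), -0.97 (SE 0.078, adjusted p = 8.78e-14) and -2.31 (SE 0.089, adjusted p = 5.34e-24). For both genes dCeMM-4 lay between DMSO and the group of dCeMM-2, dCeMM-3 and THZ531 without overlap. SNRNP40 was also called lower with dCeMM-1, at 68.5, 65.2 and 70.2 CPM, below every DMSO library (-0.21, adjusted p = 0.0344).

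The 2 largest U5 proteins did not share these falls. PRPF8, the scaffold around the active site, was at 139.7, 165 and 143 CPM in DMSO, 147, 154 and 166 under dCeMM-1, 144, 150.4 and 153 under dCeMM-2, 142, 157 and 174 under dCeMM-4 and 157, 153 and 152 under THZ531, all overlapping DMSO. None of these was called: 0.059 (SE 0.074, adjusted p = 0.591), -0.0063 (SE 0.075, adjusted p = 0.941), 0.074 (SE 0.074, adjusted p = 0.378) and 0.04 (SE 0.074, adjusted p = 0.623). Only with dCeMM-3, at 117, 136 and 124 CPM, was it called lower, at -0.26 (SE 0.075, adjusted p = 0.00223). SNRNP200, the helicase that unwinds U4 from U6, was at 325, 363 and 325 CPM in DMSO and 319, 345 and 352 under dCeMM-1. It was higher in every library of the other groups, at 431, 434 and 433 under dCeMM-2, 395, 468 and 403 under dCeMM-3, 389, 435 and 458 under dCeMM-4 and 498, 439.7 and 436 under THZ531. Its log2 fold changes were 0.0027 (SE 0.07, adjusted p = 0.981), 0.35 (SE 0.07, adjusted p = 2.23e-05), 0.32 (SE 0.07, adjusted p = 8.86e-05), 0.34 (SE 0.07, adjusted p = 4.94e-05) and 0.44 (SE 0.07, adjusted p = 5.95e-07). It was the 1 tri-snRNP gene that rose with dCeMM-2, dCeMM-3, dCeMM-4 or THZ531.

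Of the 7 genes of the Prp19-associated and catalytic complexes, 6 fell and 1 rose with each of dCeMM-2, dCeMM-3 and THZ531, where 41.2%, 45.1% and 43.7% of all genes fell. The 1 that rose was BUD31, by 0.67, 0.38 and 0.45; it overlaps PDAP1 and PTCD1 on the opposite strand. CWC22, which brings EIF4A3 to the spliceosome for exon junction complexes, was at 80.8, 68.8 and 72.1 CPM in DMSO, 20.3, 23.1 and 19.8 under dCeMM-2, 8.42, 9.54 and 8.58 under dCeMM-3 and 17.6, 13.8 and 13.7 under THZ531. Its log2 fold changes were -1.81 (SE 0.10, adjusted p = 1.19e-19), -3.07 (SE 0.11, adjusted p = 9.86e-26) and -2.30 (SE 0.10, adjusted p = 1.48e-22). AQR, an intron-binding helicase, fell, with log2 fold changes of -1.70, -1.79 and -1.03, and CRNKL1, a scaffold of the active site, did so with -1.35, -1.72 and -1.58.

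PRPF19, the ubiquitin ligase that gives the complex its name, was at 187, 207 and 183 CPM in DMSO and lower in every library with dCeMM-1 (157, 153 and 145), dCeMM-2 (146, 124 and 134), dCeMM-3 (100.2, 91.8 and 93.0) and THZ531 (120.2, 141 and 149). Its log2 fold changes were -0.35 (SE 0.074, adjusted p = 0.000391), -0.52 (SE 0.076, adjusted p = 1.11e-07), -1.02 (SE 0.077, adjusted p = 3.86e-15) and -0.50 (SE 0.076, adjusted p = 1.98e-07). With dCeMM-4, at 198, 214 and 230.3 CPM, it was not called (0.15, SE 0.074, adjusted p = 0.0674); it was called higher there without DMSO replicate 2 (0.21, adjusted p = 0.025) or dCeMM-4 replicate 1 (0.20, adjusted p = 0.0288). CDC5L, its partner in the complex, fell with dCeMM-3 from 183, 159 and 172 to 51.3, 56.5 and 55.1 CPM (-1.66, SE 0.076, adjusted p = 6.58e-22) and rose with dCeMM-4 to 281, 269 and 248 (0.64, SE 0.07, adjusted p = 2.57e-10).

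The 4 DEAH-box helicases act at successive steps, and they did not all move together. DHX16, which starts the first catalytic step, was at 12.7, 11.4 and 10.5 CPM in DMSO and fell to 1.63, 1.94 and 1.53 under dCeMM-2, 2.24, 1.87 and 2.70 under dCeMM-3, 3.54, 4.06 and 5.55 under dCeMM-4 and 1.31, 1.32 and 1.58 under THZ531. Its log2 fold changes were -2.76 (SE 0.19, adjusted p = 4.52e-16), -2.35 (SE 0.18, adjusted p = 3.23e-15), -1.42 (SE 0.15, adjusted p = 7.09e-11) and -3.05 (SE 0.20, adjusted p = 3.44e-17). DHX38, which acts between the catalytic steps, was at 60.5, 72.9 and 61.9 CPM in DMSO and 62.6, 67.4 and 62.1 under dCeMM-1. It was at 100.2, 89.2 and 85.9 under dCeMM-2, 30.4, 32.5 and 30.1 under dCeMM-3, 111, 131 and 136 under dCeMM-4 and 80.6, 85.0 and 81.7 under THZ531, so dCeMM-3 lay below every DMSO library, dCeMM-2, dCeMM-4 and THZ531 lay above, and dCeMM-1 overlapped DMSO. The log2 fold changes were 0.49 (SE 0.082, adjusted p = 1.44e-06), -1.08 (SE 0.088, adjusted p = 4.34e-14), 0.94 (SE 0.08, adjusted p = 3.55e-13) and 0.33 (SE 0.082, adjusted p = 0.000422). DHX38 overlaps PMFBP1 and TXNL4B on the opposite strand.

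DHX8, which releases the spliced mRNA, fell with dCeMM-2 (-1.48, SE 0.074, adjusted p = 2.44e-20), dCeMM-3 (-2.14, SE 0.077, adjusted p = 3.62e-25) and THZ531 (-1.06, SE 0.072, adjusted p = 2.00e-16) and rose with dCeMM-4 (0.26, SE 0.067, adjusted p = 0.000784). DHX15, which takes the spent spliceosome apart, was at 349.8, 346 and 333 CPM in DMSO, 375, 354 and 370.5 under dCeMM-1, 209, 204 and 188 under dCeMM-2, 122, 122 and 147 under dCeMM-3, 427, 423 and 434 under dCeMM-4 and 224, 201 and 194 under THZ531. It fell with dCeMM-2 (-0.78, SE 0.067, adjusted p = 2.64e-13), dCeMM-3 (-1.40, SE 0.068, adjusted p = 6.14e-21) and THZ531 (-0.74, SE 0.067, adjusted p = 1.00e-12), rose with dCeMM-4 (0.32, SE 0.066, adjusted p = 4.72e-05) and was not called with dCeMM-1 (0.094, SE 0.066, adjusted p = 0.299). PRPF4B, a kinase of the B complex, did the same: -0.80, -2.02 and -0.94 under dCeMM-2, dCeMM-3 and THZ531, and 0.30 (SE 0.10, adjusted p = 0.007) under dCeMM-4.

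**Figure D3:**
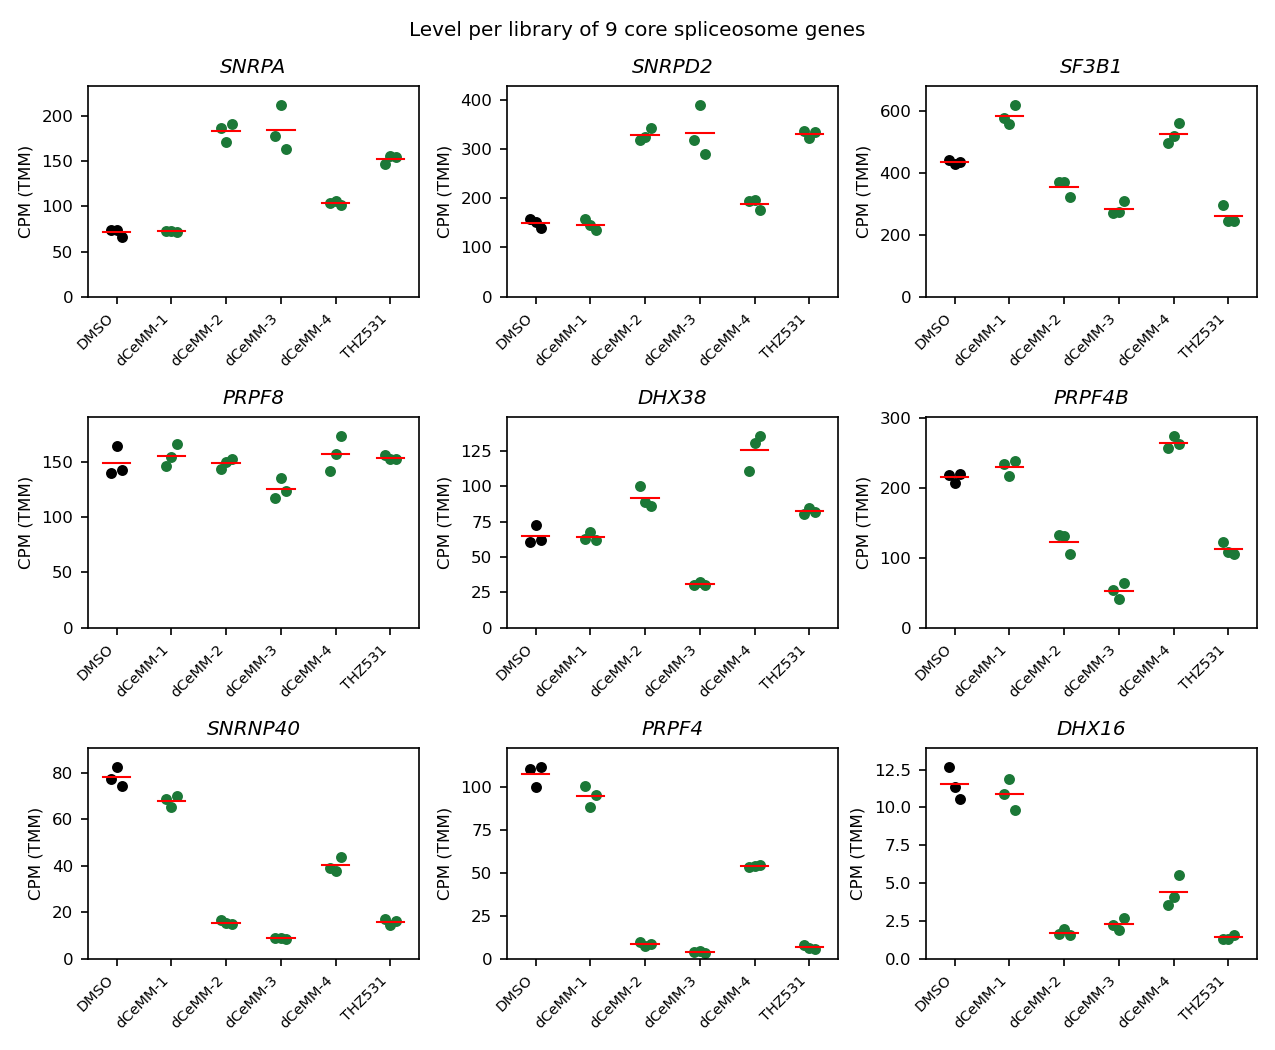
TMM-scaled CPM on linear axes from 0 for 9 genes, with 1 point per library (DMSO black, compounds green) and a red bar at the group mean. SNRPA and SNRPD2 are higher with dCeMM-2, dCeMM-3, dCeMM-4 and THZ531. PRPF4, SNRNP40 and DHX16 are lower with the same 4, SNRNP40 also with dCeMM-1, and DHX38 is below DMSO only with dCeMM-3.

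Over the 46 genes, 25 fell and 10 rose on the TMM scale with all of dCeMM-2, dCeMM-3 and THZ531, against 35.3% and 27.4% of all 15055 genes. All 10 that rose (BUD31, SF3A2, SF3B6, SNRNP200, SNRPA, SNRPB, SNRPC, SNRPD2, SNRPE and SNRPF) also rose with dCeMM-4, as did 44.7% of all genes that rose with the 3. Of the 25 that fell, 11 fell with dCeMM-4 and 6 rose with it, namely CDC5L, DHX15, DHX8, PRPF38A, PRPF4B and SF3B1; of all genes that fell with the 3, 56.6% fell and 21.9% rose with dCeMM-4. The comparisons share the DMSO libraries, so these overlaps are counts of calls and no measure of likeness between compounds.

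With dCeMM-1, changes were small: TMM log2 fold changes ran from -0.48 to 0.43. The rises were SF3B1, CRNKL1 (0.24, SE 0.07, adjusted p = 0.00744) and CDC5L (0.21, SE 0.07, adjusted p = 0.0217). Without DMSO replicate 2 only SF3B1 remained, with CRNKL1 at 0.20, adjusted p = 0.0646 and CDC5L at 0.15, adjusted p = 0.157; CDC5L was also lost without dCeMM-1 replicate 3 (0.19, adjusted p = 0.0771). The largest falls were SF3A3, from 167, 170.3 and 161 to 118, 119 and 121 CPM (-0.48, SE 0.063, adjusted p = 1.65e-07), EFTUD2, the GTPase of the U5 snRNP, from 244, 265 and 223 to 182, 177 and 181 (-0.45, SE 0.073, adjusted p = 9.94e-06), and SART1, from 64.9, 64.8 and 56.2 to 47.5, 52.7 and 46.8 (-0.35, SE 0.09, adjusted p = 0.00251). In these 3 genes and in PRPF19 no dCeMM-1 library overlapped DMSO. The 8 falls became 5 with no filter on low counts. Among them, SNRNP40 was not called without DMSO replicate 1 or 2 or without any single dCeMM-1 library (adjusted p from 0.0555 to 0.184). SNRPD1 was lost without DMSO replicate 1 (adjusted p = 0.125) or dCeMM-1 replicate 2 (adjusted p = 0.0618), and SF3B3 without DMSO replicate 2 (adjusted p = 0.0509). None of these changes was called on the spike-in scale.

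The third question was whether the 3 cyclin K degraders, given at the same multiple of their EC50 for the same time, differed in these genes; 3 pairs were compared, each with p adjusted over all genes. With dCeMM-2 against dCeMM-3, 26 of 46 were higher and 1 lower, against 26.6% and 16.5% of all genes. The largest differences were DHX38 (1.57, 95% interval 1.39 to 1.75, adjusted p = 1.35e-18), CDC5L (1.31, 95% interval 1.16 to 1.47, adjusted p = 5.25e-18) and CWC22 (1.27, 95% interval 1.03 to 1.51, adjusted p = 7.29e-12), all higher with dCeMM-2. The 1 gene lower with dCeMM-2 was EFTUD2 (-0.24, 95% interval -0.40 to -0.09, adjusted p = 0.00788), a call lost without dCeMM-2 replicate 2, at -0.19 (adjusted p = 0.081), or dCeMM-3 replicate 2, at -0.15 (adjusted p = 0.121). Without dCeMM-3 replicate 1, 2 genes were lower, EFTUD2 and SF3B3.

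DHX38 and SNRPA1 were the 2 genes called in opposite directions against DMSO by dCeMM-2 and dCeMM-3, and SNRPA1 differed between them by 1.16 (95% interval 0.94 to 1.38, adjusted p = 6.53e-12). The genes with the strongest rises did not differ detectably: SNRPA by -0.013 (95% interval -0.16 to 0.13, adjusted p = 0.911) and SNRPD2 by -0.014 (95% interval -0.17 to 0.14, adjusted p = 0.907). For PRPF3, which fell with both, the difference was -0.051 (95% interval -0.32 to 0.22, adjusted p = 0.799), and for PRPF4 it was 1.25 (95% interval 0.94 to 1.57, adjusted p = 8.28e-09). Among the other genes named throughout, SNRPB (0.38), SNRNP70 (0.86), SF3B1 (0.32), PRPF19 (0.50) and DHX15 (0.62) were called higher with dCeMM-2. SNRNP200 was not called (0.035, 95% interval -0.11 to 0.18, adjusted p = 0.735). PRPF8 was called higher (0.25, 95% interval 0.10 to 0.40, adjusted p = 0.00605), but not without dCeMM-3 replicate 1 (0.21, adjusted p = 0.0506). On the spike-in scale 16 genes were higher and 0 lower by edgeR (also 0 lower at an unadjusted p below 0.05), against 18.4% and 4.32% of all genes. The share of reads placed at several positions was 36.1% ± 0.656 under dCeMM-2 and 41.1% ± 2.96 under dCeMM-3, and the mitochondrial share of gene counts 7.03% ± 2.01 and 12.9% ± 2.25; their part in these differences was not tested.

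**Figure D4:**
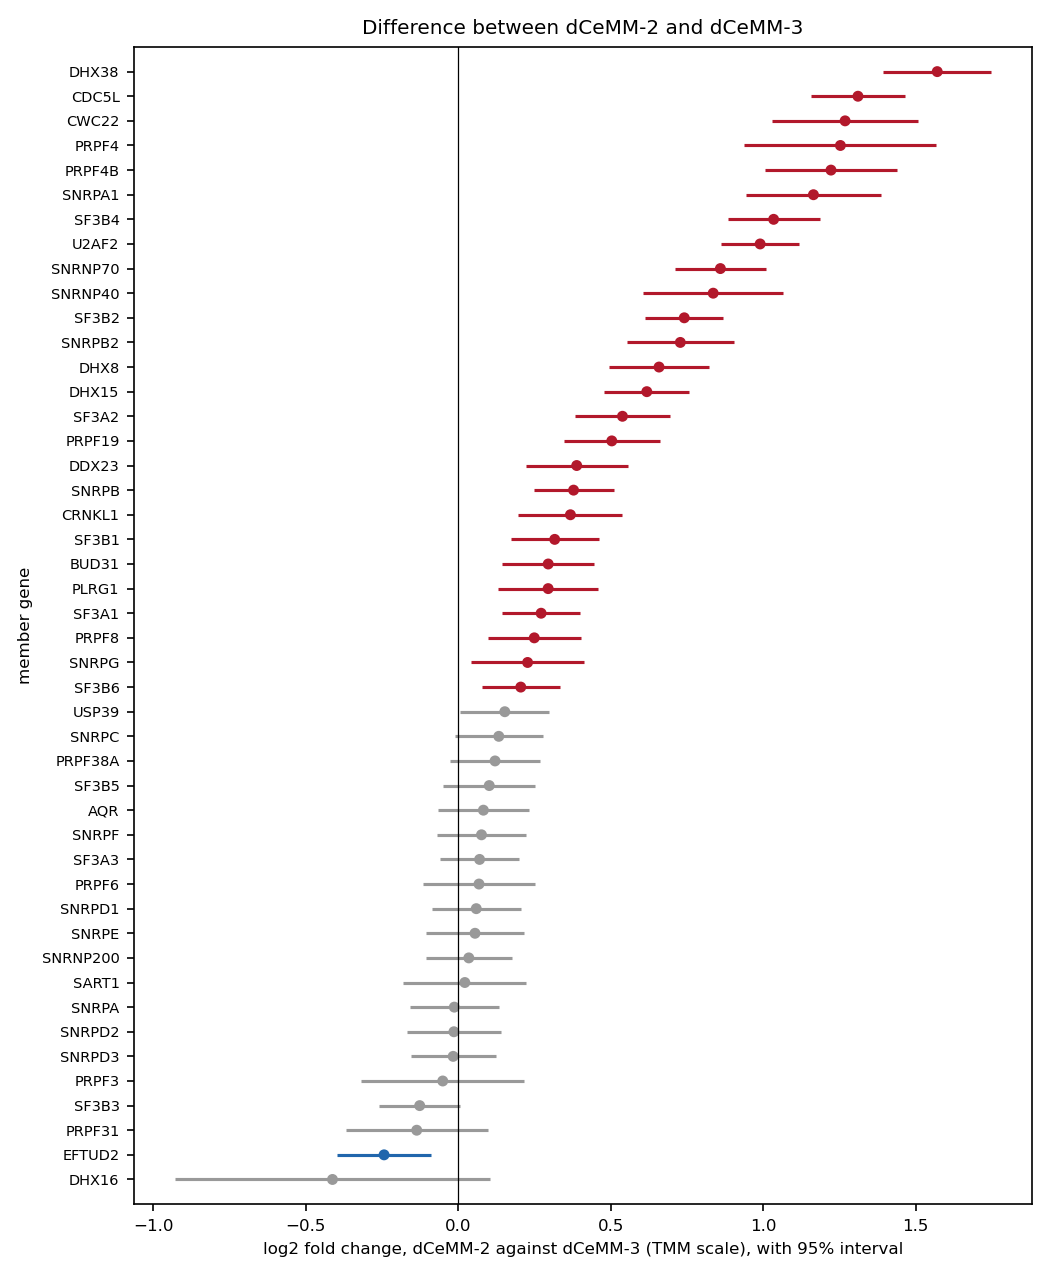
Log2 fold change of dCeMM-2 against dCeMM-3 on the TMM scale (horizontal axis) for the 46 genes (vertical axis), with 95% intervals; red genes were called higher with dCeMM-2, blue lower and grey not called. DHX38 is at the top, EFTUD2 is the 1 gene called lower, and SNRPA and SNRPD2 lie at 0.

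With dCeMM-2 against dCeMM-4, 8 of 46 were higher and 31 lower, against 38.4% and 38.9% of all genes. The largest falls were PRPF4 (-2.64, 95% interval -2.85 to -2.43, adjusted p = 7.05e-23), DHX8 (-1.74, 95% interval -1.89 to -1.59, adjusted p = 3.26e-22) and PRPF3 (-1.67, 95% interval -1.90 to -1.44, adjusted p = 4.08e-16). The largest rises were SNRPA (0.82, 95% interval 0.67 to 0.97, adjusted p = 7.19e-13), SNRPD2 (0.80, 95% interval 0.65 to 0.96, adjusted p = 6.14e-12) and SNRPC (0.42, 95% interval 0.28 to 0.57, adjusted p = 1.79e-06). With no filter on low counts 4 genes were higher.

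With dCeMM-3 against dCeMM-4, 4 of 46 were higher and 35 lower, against 41.5% and 41.2% of all genes. PRPF4 (-3.89, 95% interval -4.14 to -3.65, adjusted p = 1.32e-27), CWC22 (-2.82, 95% interval -3.04 to -2.61, adjusted p = 7.67e-25) and DHX8 (-2.40, 95% interval -2.55 to -2.25, adjusted p = 3.65e-27) were lowest with dCeMM-3. SNRPA (0.83, 95% interval 0.68 to 0.98, adjusted p = 2.69e-13), SNRPD2 (0.82, 95% interval 0.66 to 0.97, adjusted p = 2.49e-12) and SNRPC (0.29, 95% interval 0.14 to 0.43, adjusted p = 0.000378) were higher, and with no filter on low counts 2 genes were. In both pairs SNRNP70, SF3B1, PRPF19 and DHX15 were lower than with dCeMM-4: SNRNP70 at -0.70 and -1.56, SF3B1 at -0.57 and -0.88, PRPF19 at -0.67 and -1.17, and DHX15 at -1.10 and -1.72 (dCeMM-2 and dCeMM-3 in that order). SNRNP200 was not called in either pair (0.016 (95% interval -0.12 to 0.16, adjusted p = 0.842) and -0.019 (95% interval -0.16 to 0.12, adjusted p = 0.798)). PRPF8 was lower with dCeMM-3 (-0.33, 95% interval -0.48 to -0.18, adjusted p = 0.000111) and not called with dCeMM-2 (-0.081, 95% interval -0.23 to 0.069, adjusted p = 0.316). On the spike-in scale 0 genes were higher and 44 lower with dCeMM-2 than dCeMM-4 by edgeR, against 2.63% and 66.8% of all genes, and 0 were higher at an unadjusted p below 0.05. For dCeMM-3 against dCeMM-4 it was 0 and 46, against 5.35% and 65.3%, with 0 higher at an unadjusted p below 0.05. All 3 comparisons share libraries, and THZ531, at a fixed concentration, was not set against them.

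A further 68 spliceosome genes, from lists chosen with earlier results of these data known, show the setting. All 68 were tested. With dCeMM-2, 17 rose and 48 fell; with dCeMM-3 it was 14 and 51, with THZ531 12 and 49, with dCeMM-4 31 and 24 and with dCeMM-1 9 and 16. Of all genes, the shares that rose and fell were 37.1% and 41.2% (dCeMM-2), 35.9% and 45.1% (dCeMM-3), 35.8% and 43.7% (THZ531), 32.9% and 35.3% (dCeMM-4) and 16.5% and 14.8% (dCeMM-1), and the counts of the lists that follow are to be read against these. Among the 11 genes of snRNP assembly, the SMN complex and its partners that load Sm rings, the rises and falls were 2 and 9 under dCeMM-2, 1 and 10 under dCeMM-3, 2 and 9 under THZ531, 3 and 8 under dCeMM-4 and 0 and 5 under dCeMM-1. Their median log2 fold changes were -1.96, -2.17, -2.39, -0.86 and -0.15 in that order. The largest falls of that list were GEMIN5 under dCeMM-2 (-3.30, SE 0.083, adjusted p = 3.74e-29), GEMIN4 under dCeMM-3 (-4.04, SE 0.14, adjusted p = 4.17e-26) and THZ531 (-3.62, SE 0.13, adjusted p = 6.38e-25), GEMIN8 under dCeMM-4 (-1.50, SE 0.11, adjusted p = 1.34e-15) and WDR77, a partner of the methyltransferase that modifies Sm proteins, with dCeMM-1 (-0.86, SE 0.092, adjusted p = 2.28e-09). CLNS1A, the chaperone that holds Sm proteins before assembly, was the largest rise with dCeMM-2 (1.09), dCeMM-3 (1.05) and THZ531 (0.99), and STRAP with dCeMM-4 (0.52).

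The 7 genes of the LSM ring, the counterpart of the Sm ring on U6, rose and fell in numbers of 5 and 2 under dCeMM-2, 6 and 1 under dCeMM-3, 4 and 2 under THZ531, 2 and 1 under dCeMM-4 and 1 and 1 under dCeMM-1. LSM4 rose most with dCeMM-2 (1.11), dCeMM-3 (1.42) and THZ531 (1.17), and LSM8 fell most (-0.69, -0.74 and -0.76). With dCeMM-4 the extremes were LSM3 (0.52) and LSM6 (-0.42), and with dCeMM-1 LSM8 (0.28) and LSM7 (-0.25). With dCeMM-2, dCeMM-3 and THZ531 both rings thus held genes that rose and genes that fell.

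Of 25 other early and tri-snRNP factors, the rises and falls were 5 and 18 under dCeMM-2, 4 and 20 under dCeMM-3, 4 and 19 under THZ531, 15 and 8 under dCeMM-4 and 4 and 9 under dCeMM-1. LUC7L3, a U1-associated protein, rose most with dCeMM-2 (1.31), dCeMM-4 (1.28) and THZ531 (0.90), TXNL4A, a small U5 protein, with dCeMM-3 (0.47), and PRPF39, a U1-associated protein, with dCeMM-1 (0.82). MFAP1 fell most with dCeMM-2 (-2.77) and THZ531 (-2.82), AAR2, which handles PRPF8 before U5 is complete, with dCeMM-3 (-3.32), PHF5A, a further SF3B subunit, with dCeMM-4 (-1.53) and PUF60 under dCeMM-1 (-0.46).

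The 16 other Prp19, step and disassembly factors rose and fell in numbers of 2 and 13, 1 and 14, 1 and 13, 6 and 3 and 2 and 1, in the order of compounds used for the early factors. TFIP11, the partner of DHX15 in disassembly, fell most with dCeMM-3 (-3.95) and THZ531 (-2.75), BCAS2 under dCeMM-2 (-2.24), CWC27 under dCeMM-4 (-0.79) and PPIL1 under dCeMM-1 (-0.29). The largest rises were PPIE, a cyclophilin, with dCeMM-2, dCeMM-3 and THZ531 (0.33, 0.59 and 0.31), CDC40 under dCeMM-4 (0.68) and SYF2 under dCeMM-1 (0.28). For the 9 minor spliceosome genes the numbers were 3 and 6, 2 and 6, 1 and 6, 5 and 4 and 2 and 0, again in that order. PDCD7 fell most with dCeMM-2 (-1.17), dCeMM-3 (-2.06) and THZ531 (-1.75) and ZMAT5 under dCeMM-4 (-0.52). RNPC3 rose most with dCeMM-1 (1.00), dCeMM-4 (0.58) and THZ531 (0.70), and ZCRB1 under dCeMM-2 (0.54) and dCeMM-3 (0.68).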

How the data were processed

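Poly-A RNA of KBM7 cells was sequenced as 18 libraries, 3 in each of 6 groups; sample titles give the compounds as numbered hits, which the series' design text ties to the dCeMM names. The values are raw read counts per gene that the authors deposited, 1 table per library; per the submitters' processing notes the tools named are Trimmomatic 0.32, STAR 2.5.2b, Picard and HTSeq 0.11.2 with build GRCh38.p7. The annotation, strand setting and use of molecular identifiers are not given in the sources used here. The 5 HTSeq summary rows were left out of library sizes and tests; reads placed at several positions made up 28.3% ± 1.04 (SD, n = 3) in DMSO and reads with no feature 5.13% ± 0.405.

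The 58051 gene identifiers were matched to GENCODE 29 (57447 matched). The members and gene lists were chosen with earlier results of these data known. Counts were fitted with edgeR 4.0.16 (R 4.3.3, limma 3.58.1), quasi-likelihood with robust dispersion, over all 18 libraries with 12 residual degrees of freedom and 15055 genes after filterByExpr. TMM factors, or the summed counts of 92 ERCC and 7 SIRV spike-ins, set the scale. Calls used a false discovery rate of 0.05 (Benjamini-Hochberg); intervals are 95%. DESeq2 1.42.0 was an alternative. The fit was tested on simulated data. Genes were named by rule: the 4 largest rises and falls against DMSO without overlap, the 3 largest each way between compounds, those called in opposite directions on the 2 scales, and SNRPB, SNRNP70, SF3B1, U2AF1, PRPF8, SNRNP200, PRPF19 and DHX15; other genes were chosen after their values were seen. Same-numbered libraries did not deviate together, so replicate numbers were not used as pairs.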

Additional observations from a re-analysis of the deposited data

Results flagged for a closer look

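Reads outside the gene counts differed from DMSO in some groups, with all 3 libraries above all 3 DMSO libraries (exact two-sided permutation test, p = 0.1, the smallest that 3 against 3 can give). The share of reads with no feature was 5.13% ± 0.405 (SD, n = 3) in DMSO, 5.74% ± 0.301 with dCeMM-1, 7.48% ± 1.03 with dCeMM-2 and 8.29% ± 0.669 with dCeMM-4. The share of reads placed at several positions was 28.3% ± 1.04 for DMSO, 36.1% ± 0.656 for dCeMM-2, 41.1% ± 2.96 for dCeMM-3 and 37.5% ± 2.03 for THZ531. Core spliceosome genes with annotated copies, such as SNRPG and SNRPC, are those whose reads can fall in the second class; its part in their values was not tested.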

How the results depend on the processing

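Of 6118 recomputed gene results, 5900 kept their direction and their side of the threshold, 138 lost the call, 79 gained one and 1 reversed: SNRPB2 with THZ531, at -0.009 in the fit of all libraries, was 0.18 and called higher by edgeR when only the 2 groups were fitted; the cause was not tested. The largest log2 shift from leaving out 1 library was 0.30. With no filter on low counts, the falls with dCeMM-1 went from 8 to 5, the genes higher with dCeMM-2 than dCeMM-4 from 8 to 4 and those higher with dCeMM-3 than dCeMM-4 from 4 to 2. With DESeq2 size factors and with DESeq2, 2 genes in place of 1 were lower with dCeMM-2 than dCeMM-3. Leaving out 1 library gave 1 to 3 rises with dCeMM-1, 0 to 2 genes lower with dCeMM-2 than dCeMM-3 and, on the spike-in scale with dCeMM-4, 0 to 2 rises and 13 to 23 falls. The snRNP median minus the PRPF and DHX median became 1.39 with dCeMM-2 and 1.21 with THZ531 when SNRNP200 and SNRNP40 were added. With the SF3A and SF3B subunits added it was 1.07 (dCeMM-2), 1.08 (dCeMM-3) and 0.95 (THZ531), and over genes of at least 10 CPM it was 1.41 with dCeMM-2 and 1.22 with THZ531. With the replicate number as a block, no TMM call changed (368 of 368) and the genes lower with dCeMM-2 on the spike-in scale went from 46 to 45 and with dCeMM-4 from 20 to 18; same-numbered libraries had a median correlation of deviations of 0.00023 over 45 pairs, from -0.11 to 0.083, and 9 of 18 libraries correlated best with their own number.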
